A study of Xiphophorus maculatus with 32 samples.

Results

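Skin of mature male *X. maculatus* was examined by RNA-Seq for a group of 100 transcripts whose levels were higher after light exposure in 2 separate experiments, one with wavebands of 50 nm and one with wavebands of 10 nm. The 100 transcripts were taken from 14297 that had a mean CPM (reads scaled to a common library total of 1000000) of at least 2 over the distinct libraries, out of 20218 in the table. For each transcript the mean log2(CPM + 1) of the 2 controls was subtracted from the mean of the exposed fish, in the 50 nm experiment and again in the 10 nm experiment. The members are the 100 transcripts chosen by the largest value of the smaller of these 2 differences. The choice therefore used every comparison of the exposed fish with their own controls, and values from those comparisons are given as a description, with no test read from them.

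All fish were inbred *X. maculatus* Jp 163 B males of 10 to 11 months from generation 105 of sibling mating, so genotype, sex and age are shared by every group. In the 50 nm experiment 12 fish, 2 for each waveband, received 300–350 nm at 7.3 kJ/m2, 350–400 nm at 18.6 kJ/m2, 400–450 nm at 21.6 kJ/m2, 450–500 nm at 21.2 kJ/m2, 500–550 nm at 17.4 kJ/m2 or 550–600 nm at 13.8 kJ/m2 from a xenon lamp behind a monochromator. In the 10 nm experiment 10 fish, again 2 for each waveband, received 500–510, 510–520, 520–530, 530–540 or 540–550 nm from the same kind of source. By the paper's methods the dose in these narrow wavebands fell from the shortest to the longest. Exposed fish were then kept in the dark before the skin was taken. Each experiment had 2 unexposed controls, and 2 further fish received fluorescent light (FL) of 4100 K at 35 kJ/m2, whose deposited control columns hold the same values as the controls of the 50 nm experiment, 2 fish that were therefore counted for both. The methods describe controls taken from the dark without handling and also unexposed controls treated like the exposed fish, and the labels do not say which kind these 4 fish were. Light and handling therefore cannot be told apart in the differences from the controls. The 28 distinct libraries held 12835091 to 41221463 counts, with a median of 16067180.

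Fish skin is struck by light directly, and in fish models such as zebrafish many tissues outside the eye carry light-sensitive proteins and change transcription after illumination. Ultraviolet light damages DNA, whereas longer ultraviolet and visible light acts largely through photoreceptor proteins and through pigments and cofactors that form reactive oxygen species. Genes known to answer such exposures include those of the circadian clock and DNA repair, heme oxygenase, and chaperones that handle misfolded proteins. Of the 100 members, 6 are described here under a name, from a panel of named transcripts given for the study. The others are known here by their Ensembl transcript identifier only, and nothing is said of their function. The skin could not be checked against cell type markers, since of 9 marker lists only that of skeletal muscle had a named transcript, MYL2B, a muscle myosin light chain. It lay between 27.9 and 150 CPM in the 28 libraries.

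The members' difference from the controls had a median of 0.76 (log2 scale; range 0.59 to 2.31) in the 50 nm experiment and of 0.90 (0.59 to 2.66) in the 10 nm experiment. Over all 14297 transcripts the medians were -0.02 and -0.01. A difference of at least 1 was seen for 22 members in the 50 nm experiment, for 39 in the 10 nm experiment and for 14 in both. The choice rested on these differences, so the counts only describe the group. The difference was larger in the 10 nm than in the 50 nm experiment for 62 members. Members were not the most abundant transcripts: their mean level had a median of 17.2 CPM (range 2.23 to 1451), against 21.0 CPM over all transcripts, and 30 of them lay under 10 CPM. Together they took 0.409% to 0.499% of the counts in the 4 controls and up to 2.23% in an exposed fish.

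**Figure D1:**
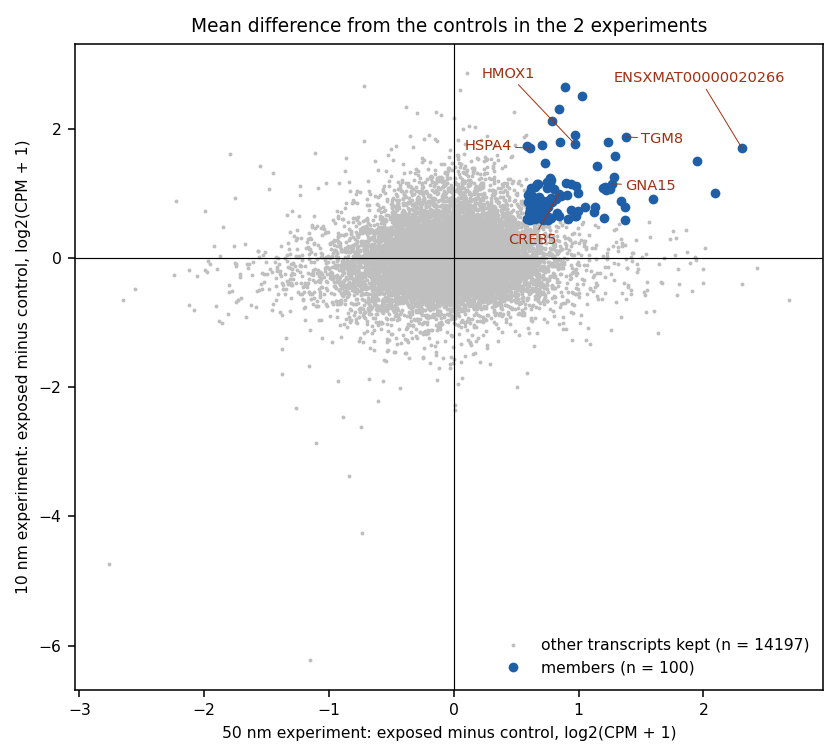
Each point is a transcript, with its mean difference between exposed and control fish in log2(CPM + 1) in the 50 nm experiment (x axis, 12 exposed and 2 control fish) and in the 10 nm experiment (y axis, 10 exposed and 2 control fish). The 100 members (blue) lie at 0.59 or above on both axes because they were chosen so, and 6 with a name are labelled, ENSXMAT00000020266 by its identifier.

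The border of the group was narrow. The member ranked 99, ENSXMAT00000018201, had differences of 0.59 and 0.60 in the 50 nm and 10 nm experiments. The transcripts just outside were ENSXMAT00000008305 and ENSXMAT00000005704, whose smaller difference was 0.58 in each case.

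The first member by rank was ENSXMAT00000020266, which the panel names after a genomic clone, without a known function. Its control levels were 1.64 and 2.54 CPM in the 50 nm experiment and 3.02 and 2.36 CPM in the 10 nm experiment. The 12 fish exposed to 50 nm wavebands had 5.69 to 51.5 CPM (median 11.7), and the 10 fish exposed to 10 nm wavebands had 7.36 to 19.5 CPM (median 10.8), so that no exposed fish overlapped the controls. Its highest levels were the 51.5 and 33.1 CPM of the fish at 500–550 nm, and in the narrow wavebands the 14.8 and 19.5 CPM of the fish at 540–550 nm. In the panel it stands in a block of 10 transcripts printed apart from the rest. By the paper the panel has 10 housekeeping genes, which it reports as unmodulated by light. The panel marks its housekeeping genes by a colour that the text used here does not carry, so whether this block holds them is not known. Of the block, 9 transcripts were among the 14297, and the other 8 had differences of -0.46 to 0.40 in the 50 nm experiment and of -0.64 to 0.44 in the 10 nm experiment.

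The member ranked next, ENSXMAT00000000193, had a similar course at a higher level. Its controls lay at 11.2, 8.04, 8.10 and 8.39 CPM, the 50 nm fish at 25.1 to 105 CPM (median 35.0) and the 10 nm fish at 12.3 to 44.1 CPM (median 25.4). It too was highest at 500–550 nm, with 105 and 65.9 CPM, and at 540–550 nm, with 38.4 and 44.1 CPM. Over the exposed fish the log2 levels of these members had a Pearson correlation of 0.92 in the 50 nm experiment (n = 12) and 0.65 in the 10 nm experiment (n = 10), which is a description, since both were chosen for high levels in these same libraries. Their courses parted after FL, where ENSXMAT00000020266 had 5.30 and 4.26 CPM and ENSXMAT00000000193 had 11.6 and 5.83 CPM, the latter overlapping its controls.

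TGM8 (ENSXMAT00000009163), named as a member of the transglutaminases, which cross-link proteins and in mammalian skin help to build the cornified layer, came next. Its controls had 48.6 and 23.1 CPM in the 50 nm experiment and 13.5 and 14.9 CPM in the 10 nm experiment. The exposed fish had 29.3 to 209 CPM (median 81.7) in the 50 nm experiment, where 10 of 12 were above both controls, and 19.8 to 191 CPM (median 46.4) in the 10 nm experiment, where all 10 were. The pair of fish at 350–400 nm was highest among the 50 nm wavebands, with 179 and 209 CPM. Within the 10 nm experiment the levels were far apart in fish that had received the same light: 191 and 22 CPM at 510–520 nm, and 142 and 19.8 CPM at 520–530 nm.

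GNA15 (ENSXMAT00000013490) encodes an alpha subunit of the Gq class of G proteins, which couple receptors at the cell surface to phospholipase C. Its controls had 8.30 and 5.63 CPM in the 50 nm experiment and 7.52 and 6.0 CPM in the 10 nm experiment. All 12 fish of the 50 nm wavebands were above their controls, at 10.6 to 36.8 CPM (median 18.4), and 9 of the 10 fish of the 10 nm wavebands were, at 6.93 to 55.4 CPM (median 12.5). As for TGM8, the pairs at 510–520 nm (55.4 and 8.19 CPM) and 520–530 nm (38.3 and 6.93 CPM) were wide apart, with fish 1 high and fish 2 near the controls.

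HMOX1 (ENSXMAT00000004591) encodes heme oxygenase 1, which breaks down heme and in human skin fibroblasts is known to be induced by long-wave ultraviolet light and other oxidants. It had 14.2 and 12.9 CPM in the 50 nm controls and 8.87 and 9.18 CPM in the 10 nm controls. At 300–350 nm the fish had 15.6 and 11.7 CPM, on either side of the controls. At 350–400 nm they had 87.2 and 8.89 CPM, the highest and the lowest values of the 50 nm experiment. At 450–500 nm both fish were high, at 45.8 and 54.4 CPM. All 10 fish of the 10 nm experiment were above their controls, from 11.4 to 109 CPM with a median of 30.7 CPM.

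HSPA4 (ENSXMAT00000001625) encodes a chaperone of the HSP110 family, a nucleotide exchange factor for HSP70 proteins. Its difference was 0.61 in the 50 nm experiment and 1.71 in the 10 nm experiment. The exposed fish had similar levels in both, 36.5 to 84.1 CPM (median 60.0) and 33.0 to 81.0 CPM (median 50.2). The controls did not: they had 35.3 and 41.3 CPM in the 50 nm experiment and 14.8 and 14.6 CPM in the 10 nm experiment. In the 2 fish that received FL the level was 32.1 and 30.5 CPM, below both controls set against them and above both controls of the 10 nm experiment. By CPM, however, both FL fish were below both of these 50 nm controls for 43.4% of all transcripts. With library sizes scaled by edgeR's TMM method, the log2 difference of HSPA4 after FL was -0.08.

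CREB5 (ENSXMAT00000001067), a transcription factor that binds cyclic AMP response elements, was a low member. Its controls had 1.86 and 3.40 CPM in the 50 nm experiment and 1.54 and 1.70 CPM in the 10 nm experiment. The exposed fish had 2.87 to 8.69 CPM (median 4.99) and 1.48 to 8.17 CPM (median 4.57), with 11 of 12 and 9 of 10 above both controls.

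**Figure D2:**
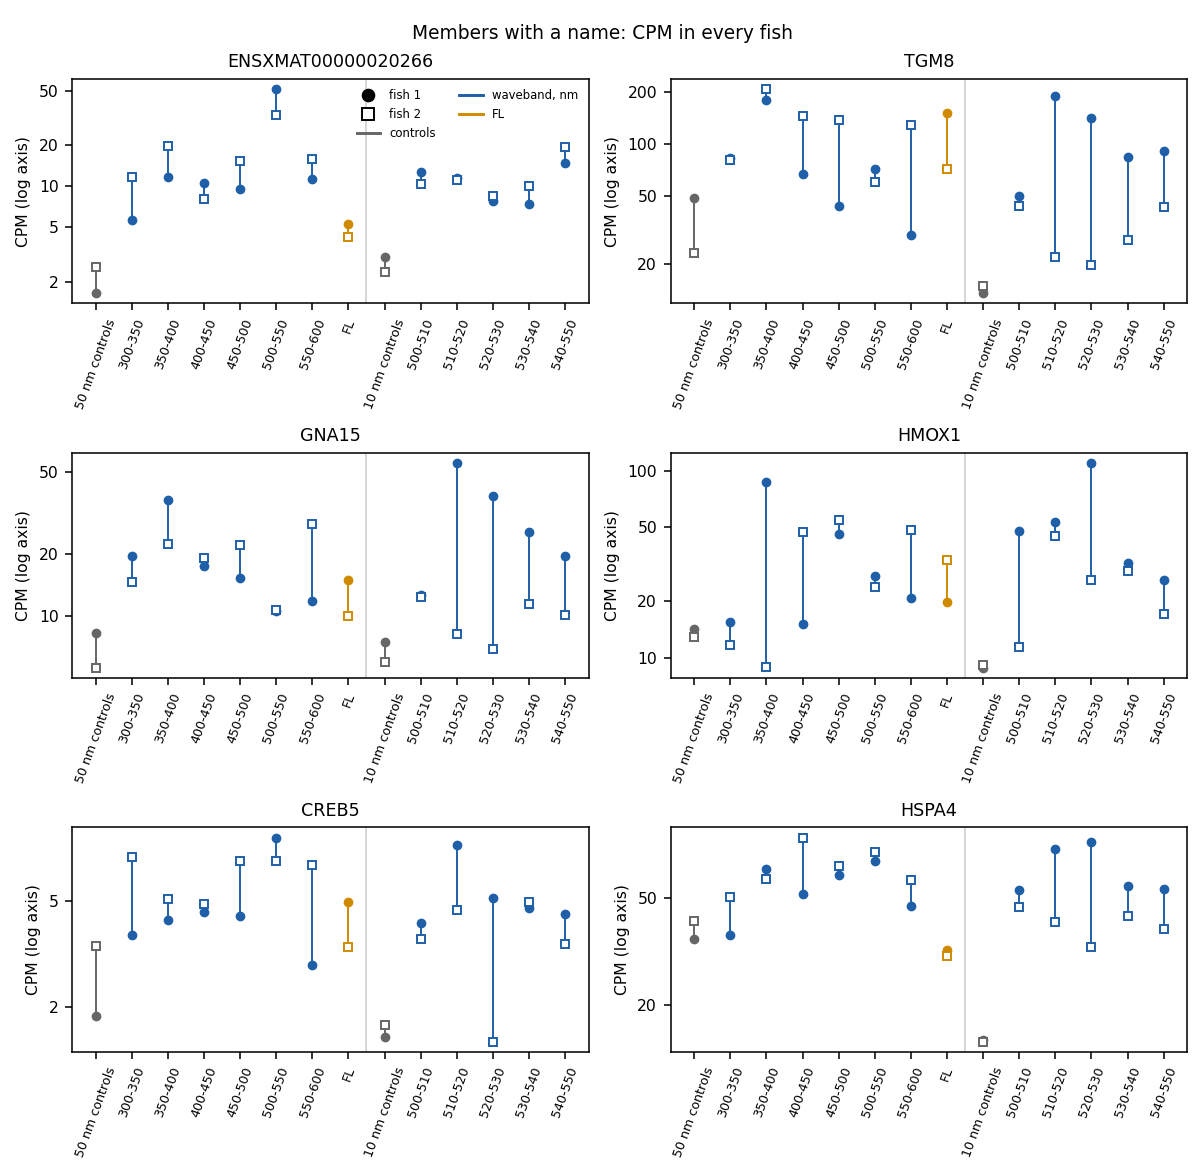
CPM (y axis, log scale) of 6 members with a name in each of the 28 distinct libraries, by exposure (x axis, wavebands in nm), with a filled circle for fish 1 and an open square for fish 2 joined by a line, controls in grey and FL in orange. For TGM8 and GNA15 the fish at 510–520 nm and at 520–530 nm lie far apart, whereas ENSXMAT00000020266 has both fish above both controls in all 11 wavebands.

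The remaining members among the first 5 by rank were ENSXMAT00000019885 and ENSXMAT00000013313. The first had 11.0 and 25.0 CPM in the 50 nm controls, 8.74 and 10.2 CPM in the 10 nm controls, and medians of 44.5 and 27.5 CPM in the exposed fish of the 2 experiments. The second had 207 and 93.6 CPM in the 50 nm controls against 116 to 850 CPM in the exposed fish, and 279 and 358 CPM in the 10 nm controls against 349 to 2290 CPM. In both experiments its exposed fish overlapped the controls, with 11 of 12 and 9 of 10 above them.

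The choice averaged the differences from the controls over all wavebands of an experiment, which favours transcripts raised in many of them. Every fish of the 50 nm wavebands was above both controls for 55 of the 100 members (8.66% of all 14297 transcripts), every fish of the 10 nm wavebands for 61 (15.2%), and both held for 36 (1.23%). Since the choice rested on these differences, the counts describe the group and test nothing. Of the 11 wavebands, the median member had both fish above both controls in 10, and the median of all transcripts was 3. There were 79 members with 9 or more such wavebands and 3 with 5 or fewer. The shares of all transcripts with so many or so few were not computed, so these counts have no background here. The wavebands of an experiment also share the same controls and are not separate comparisons. When the highest fish of each experiment was left out, the smallest differences over the members were 0.43 in the 50 nm experiment and 0.42 in the 10 nm experiment.

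By waveband, both exposed fish were above both controls for 80 members after 300–350 nm (29.3% of all transcripts), whereas 350–400 nm gave 88 (25.0%) and 400–450 nm 86 (30.8%). The largest number in this experiment was the 92 of 450–500 nm (28.7%), followed by the 87 of 500–550 nm (28.4%), and the smallest was the 77 of 550–600 nm (28.5%). Of the narrow wavebands, 500–510 nm had 93 such members (34.4%), 510–520 nm had 88 (25.0%), 520–530 nm had 79 (29.5%), 530–540 nm had 89 (39.5%) and 540–550 nm had 84 (33.6%). The members' median difference was smallest at 300–350 nm (0.55), the waveband with the lowest dose, and largest at 510–520 nm (1.23). At 510–520 nm the fish were far apart, with a median of 1.74 in fish 1 and of 0.55 in fish 2. Dose and wavelength cannot be told apart among the 50 nm wavebands, nor among the 10 nm wavebands, where the dose fell as the wavelength rose. In edgeR fits against the same controls, 59 members in the 50 nm experiment (3.79% of all transcripts) were higher in at least 1 waveband. In the 10 nm experiment 1 member was (0.00611%). Both counts used an adjusted p under 0.05 and a log2 change of at least 1. With the fish number as a block, 43 members were called higher in the 10 nm experiment, among 399 transcripts called higher. The choice of members fixed these comparisons, so the counts are a description and nothing is read from them.

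**Figure D3:**
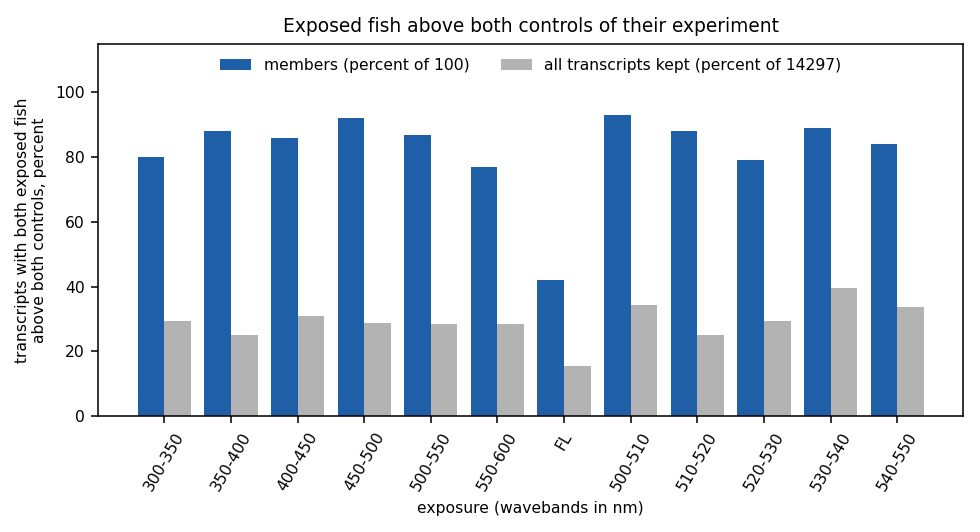
Percent of transcripts (y axis, from 0) with both exposed fish above both controls of their experiment, for the 100 members (blue) and for all 14297 transcripts (grey), by exposure (x axis, wavebands in nm). The members lie between 77 and 93 in the 11 wavebands and at 42 after FL, with 25.0% to 39.5% and 15.5% over all transcripts.

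Differences among wavebands do not compare fish with the controls and were not used for the choice. The controls were part of the same fits, however, and entered the estimate of the spread. A member may also have entered the group through 1 high waveband or fish. Among the 6 wavebands of 50 nm, 3 of the 100 members differed by edgeR's quasi-likelihood F-test (adjusted p under 0.05 and at least 1 on the log2 scale between the highest and the lowest waveband), against 2.37% of all transcripts tested. By that rule the share of members was close to the background. An unadjusted p under 0.05 was found for 32 members, against 19.3% of all transcripts, and DESeq2 called 17 members, against 5.30%. The edgeR number moved between 0 among 317 transcripts called, without fish 1 of 400–450 nm, and 13 among 552, without fish 1 of 450–500 nm, and was 5 among 378 and 7 among 395 without fish 1 or fish 2 of 550–600 nm.

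ENSXMAT00000020266 was one of the 3. Its range between wavebands was 2.34 on the log2 scale (adjusted p = 0.0271 by edgeR), from 300–350 nm, with 5.69 and 11.7 CPM, to 500–550 nm, with 51.5 and 33.1 CPM. The pair at 500–550 nm lay above the 10 other exposed fish, of which the highest had 19.7 CPM. Without either fish of 500–550 nm the adjusted p was 0.208 or 0.0553, and without either fish of 400–450 nm it was 0.0605 or 0.0624.

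The other 2 had a single fish far above the rest at 450–500 nm. ENSXMAT00000006503 had a range of 4.42 (adjusted p = 0.0244) with its highest level at 450–500 nm, where the fish had 23.3 and 287 CPM, and its lowest at 350–400 nm, with 10.9 and 3.40 CPM. Without fish 2 of 450–500 nm the range was 1.61 and the adjusted p 0.404. ENSXMAT00000009203 had a range of 4.82 (adjusted p = 0.0274), with 4.57 and 62.2 CPM at 450–500 nm and 10.3 and 8.98 CPM at 550–600 nm, against 0.794 to 2.74 CPM in the other 50 nm wavebands. Without that fish it stayed called, with a range of 3.0 and an adjusted p of 0.0285. Of the 14 fits that each left out 1 library, 8 called ENSXMAT00000006503 and 4 called ENSXMAT00000009203.

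Fish 2 of 450–500 nm stood apart for further members. For 6 members 1 fish of the 50 nm experiment was at least 4-fold above each of the other 11 exposed fish, and in all 6 it was this fish (0.105% of all transcripts). Besides the 2 just named they were ENSXMAT00000014042 with 224 CPM against 14.4 CPM in the next fish, ENSXMAT00000018517 with 524 against 124 CPM, ENSXMAT00000017012 with 94.6 against 12 CPM and ENSXMAT00000015947 with 305 against 61.8 CPM. No member had such a fish in the 10 nm experiment. A single very high fish raises the mean difference that the choice used, so this count describes the group and tests nothing.

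A trend with wavelength over the 50 nm wavebands was called for 2 of the 100 members, against 1.36% of all transcripts. ENSXMAT00000018069 rose by 3.32 ± 0.61 (SE) on the log2 scale from the first to the last waveband (adjusted p = 0.0163 by edgeR), from 0.917 and 0.521 CPM at 300–350 nm through 2.26 and 2.02 CPM at 450–500 nm to 1.56 and 12 CPM at 550–600 nm. Without the fish with 12 CPM the trend was 2.44 with an adjusted p of 0.119. ENSXMAT00000016248 went the other way, by -1.11 ± 0.29 (adjusted p = 0.0466), from 17.8 and 20.5 CPM at 300–350 nm to 5.87 and 10.9 CPM at 550–600 nm, and stayed called in 3 of 14 fits without 1 library. An unadjusted p under 0.05 was found for 21 members, against 21.2% of all transcripts, and DESeq2 called 5 members, against 2.03%. Without fish 2 of 550–600 nm no member passed, among 3 transcripts called, and without fish 1 of that waveband 4 did, among 141. None of the 6 members described under a name passed this test.

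**Figure D4:**
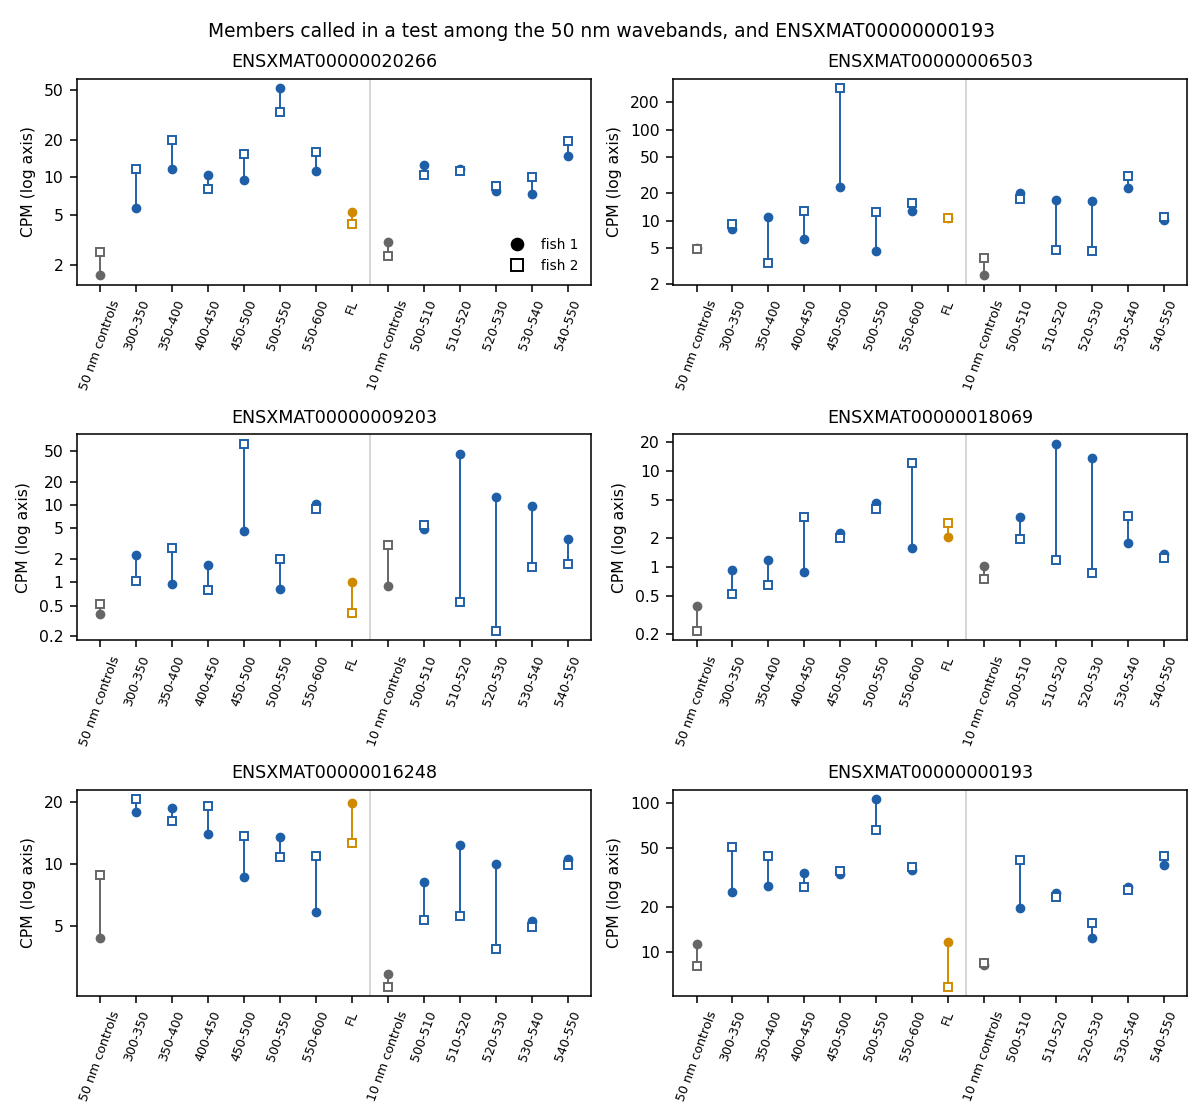
CPM (y axis, log scale) in each of the 28 distinct libraries, by exposure (x axis, wavebands in nm), of the 5 members called in a test among the 50 nm wavebands and of ENSXMAT00000000193, with fish 1 as a filled circle and fish 2 as an open square. At 450–500 nm fish 2 is far above fish 1 for ENSXMAT00000006503 (287 CPM) and ENSXMAT00000009203 (62.2 CPM). For ENSXMAT00000020266 and ENSXMAT00000000193 both fish at 500–550 nm are above those of the other wavebands.

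Among the 5 wavebands of 10 nm, 0 members and 0 of all 16366 transcripts were called by edgeR (0%). An unadjusted p under 0.05 was found for 15 members, against 7.85% of all transcripts, and DESeq2 called 9 members, against 2.02%. The lowest adjusted p of a member was 0.378. ENSXMAT00000020266 had a range of 1.04 between 520–530 and 540–550 nm (adjusted p = 0.458).

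Within a waveband the members moved together from fish to fish, which the choice did not use directly. The difference between fish 1 and fish 2 was taken for each of the 11 wavebands, and the mean correlation of these differences between pairs of members was 0.51, against 0.04 between pairs of all transcripts. The correlation of a member with the median of the other members had a median of 0.82 (range -0.51 to 0.98), was at least 0.5 for 83 members and was under 0 for 4. This correlation was not computed for all transcripts, so its median and counts have no background here. All of these values are descriptions over 11 differences from shared libraries. A choice by high means also favours transcripts that are high in the same fish. TGM8 (0.96), GNA15 (0.97), HSPA4 (0.87) and CREB5 (0.84) followed the others closely, and HMOX1 did so less (0.52). ENSXMAT00000020266 (0.16) and ENSXMAT00000000193 (-0.10), the first members by rank, did not follow them.

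The largest of these differences were in the 10 nm experiment. At 510–520 nm the members were higher in fish 1 than in fish 2 by a median of 1.12 on the log2 scale (all transcripts -0.08), and 57 of them were at least 2-fold apart (14.01% of all transcripts). At 520–530 nm the median was 0.94 (all transcripts 0.06), with 48 at least 2-fold apart (8.21%). Fish 1 was the higher in both wavebands for 85 members (37.1% of all transcripts). At 500–510, 530–540 and 540–550 nm fish 1 was again the higher for most members, for 70 (44.5%), 76 (42.4%) and 77 (54.5%), with medians of 0.16, 0.21 and 0.30. In the 50 nm experiment the order was the other way at 550–600 nm, where fish 1 was the higher for 7 members (51.9% of all transcripts), with a median difference of -0.65 (all transcripts 0.01), and at 450–500 nm, where it was for 20 (63.3%), with -0.37 (all transcripts 0.10). It was also the other way at 400–450 nm, where fish 1 was the higher for 24 members (62.8%), with -0.29 (all transcripts 0.09). At 350–400 nm fish 1 was the higher for 68 members (62.3%), with 0.24 (all transcripts 0.09). At 300–350 and 500–550 nm the medians were -0.0009 and 0.016 (all transcripts 0.01 and -0.05).

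Fish 1 of 510–520 nm had the highest level of the 10 nm experiment for 55 members (12.9% of all transcripts) and fish 1 of 520–530 nm for 23 (17.8%). In the 50 nm experiment fish 2 of 450–500 nm was highest for 30 (7.44%), fish 2 of 550–600 nm for 24 (9.46%) and fish 1 of 350–400 nm for 17 (7.81%). The choice used the means of these same fish, which a single high fish raises, so the counts are a description. Fish 2 of 550–600 nm was also the most deeply sequenced, with 41221463 counts. Over the exposed fish the members' median log2 level had a correlation with the log2 total count of 0.72 in the 50 nm experiment (n = 12) and 0.26 in the 10 nm experiment (n = 10). The part of depth in the members' levels was not tested.

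**Figure D5:**
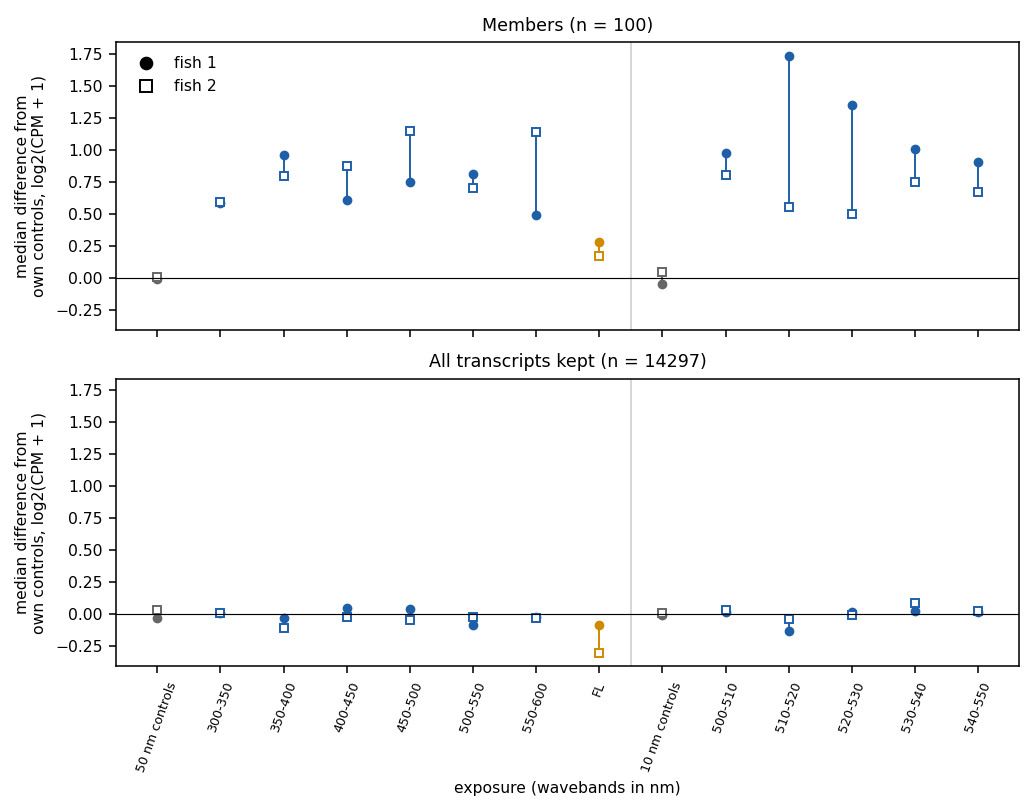
Median difference of each fish from the mean of the 2 controls set against it in log2(CPM + 1) (y axis), over the 100 members (upper panel) and over all 14297 transcripts (lower panel), by exposure (x axis, wavebands in nm), with fish 1 as a filled circle and fish 2 as an open square. The members' medians run from 0.49 to 1.74 in the exposed fish of the wavebands and are 0.28 and 0.17 in the FL fish, while the medians of all transcripts stay between -0.30 and 0.09.

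FL was not part of the choice, but its controls were, and its values are therefore given as a description. The FL fish were both above both controls for 42 members (15.5% of all transcripts) and both below for 9 (43.4%), HSPA4 being among the latter. The CPM of FL fish were shifted as a whole, with a median difference of -0.21 over all transcripts and of 0.20 over the members. With library sizes scaled by edgeR's TMM method the median over all transcripts was 0.00 and that over the members 0.37. On that scale both fish were above both controls for 58 members (29.6%) and both below for 4 (26.3%). Of the 36 members with every waveband fish above the controls, 19 had both FL fish above as well. The matching share among all transcripts was not computed, so this count has no background here and nothing is read from it. None of the members was called by edgeR (0% of 16513 transcripts), 37 members had an unadjusted p under 0.05 (16.8% of all transcripts, in either direction), and DESeq2 called 12 members higher (1.43%). These fits use the controls that the choice used, and nothing is read from them about the members. Without fish 1 of FL edgeR called 23 members, among 791 transcripts called higher, and without fish 2 it called 8, among 138.

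After FL, TGM8 had 150 and 71.5 CPM, levels within those of the 50 nm wavebands. HMOX1 had 19.8 and 33.4 CPM, GNA15 15.0 and 10.0 CPM and CREB5 4.96 and 3.38 CPM, the second CREB5 fish lying at the higher control. ENSXMAT00000020266, with 5.30 and 4.26 CPM, was by CPM below every fish of the 50 nm wavebands. The CPM of FL fish were shifted as a whole, and this order was not tested with TMM scaling. In the edgeR fit with TMM scaling its log2 difference after FL was 1.40.

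The 4 controls bear on every member. Between the controls of the 2 experiments the members differed by a median of 0.12 (50 nm minus 10 nm, log2), against 0.10 over all transcripts. At least 2-fold, 5 members were higher and 1 was lower in the 50 nm controls, HSPA4 and TGM8 being among the 5 and ENSXMAT00000013313 being the 1, and 9.86% of all transcripts were as far apart in either direction. The 2 controls of an experiment were at least 2-fold apart for 6 members in the 50 nm experiment (0.609% of all transcripts) and for 3 in the 10 nm experiment (0.650%). When the 4 controls were pooled and set against both experiments, 49 of the 100 members were chosen again.

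Few genes of the known light-response pathways could be placed, because few transcripts have names. Of lists of genes chosen for light-exposed skin, the signalling list had 12 named transcripts, of which 2, GNA15 and CREB5, were members, and none of the others was called by edgeR in a 50 nm waveband against the controls. The list of photolyase and DNA damage genes, to which the heme oxygenase gene HMOX1 had been added, had 8 named transcripts. Only HMOX1 was a member, and of the others none was higher and 1 was lower in a 50 nm waveband. The heat shock list had 3, with HSPA4 as member and neither of the others called. The clock list had 5 and the cell cycle list 7, with no member in either. In the 50 nm experiment 1 clock transcript was higher and 1 cell cycle transcript was lower, and the single named matrix transcript was not called. No named transcript of any list was called in the 10 nm or the FL comparison. Over all transcripts, edgeR called 3.79% higher in at least 1 waveband of the 50 nm experiment, 0.00611% in the 10 nm experiment and 0% after FL. With shares this low, nothing is read from the lack of calls in such short lists.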

How the data were processed

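RNA-Seq of skin RNA was used, from individual fish that the labels list as separate samples. After trimming and quality filtering, the authors aligned the reads to Ensembl cDNA sequences of *Xiphophorus* with GSNAP (version not given in the sources used here). They counted the mapped reads with a tool written as xEpress in the methods and deposited raw, unscaled counts per transcript. The deposited counts were used as they stand. How reads shared by near-identical transcripts were divided in this counting is not stated in the methods, so values of close paralogs are uncertain. Columns with identical values were counted as 1 library, which left 28 of 32. All columns belonged to samples of the series.

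CPM are counts divided by a library's total and multiplied by 1000000, and log2 values of single fish used a pseudocount of 1. Members and gene lists were chosen with earlier results of these data known. Each experiment was fitted with edgeR 4.0.16 in R 4.3.3 (filterByExpr, TMM scaling, quasi-likelihood test), with p-values adjusted by the Benjamini-Hochberg method over all transcripts tested. A transcript was called at an adjusted p under 0.05 and a log2 change of at least 1, the thresholds of the study's methods. With 2 fish in a group, p-values rest on a spread shared over the groups. All 100 members passed the filter on low counts. Before use the tests were run on simulated data with a log2 change of 2 in 200 transcripts. They called 186 to 197 of these and 2 to 12 others. The simulated counts were drawn independently for each transcript and fish, unlike the differences between fish shared by many members here. How the tests behave with such shared differences was not tested.

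Alternatives were RLE size factors, no filter, DESeq2 1.42.0, the fish number as a block, and leaving out each library. For the member list they were TMM library sizes, pseudocounts of 0.25 and 5, a minimum mean of 1 or 5 CPM, the median of the exposed fish and pooled controls. Crossed fish numbers, and a fit without the high fish of 510–520 and 520–530 nm, were added after seeing the data. The genes named are the members with a name (1 member is not reported here), the 5 members with the largest smaller difference, the transcripts ranked 99 to 102 and up to 3 members called with the smallest p in each test among wavebands. Others named, namely 4 members high in fish 2 of 450–500 nm and MYL2B, were chosen after their values were seen. Names came from the study's panel, read from page text and matched by the number in the identifier, and from rows of the table that carry a name. Plots were made with matplotlib 3.10.9. The sham-treated fish and the NanoString panel's measurements were not used here.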

Additional observations from a re-analysis of the deposited data

Results flagged for a closer look

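Of the members, 5 differed between wavebands of the 50 nm experiment by the test among wavebands or the trend. ENSXMAT00000020266 had a log2 range of 2.34 (edgeR, adjusted p = 0.0271) and was higher in both fish at 500–550 nm than in the other 10 exposed fish. It stayed called in 10 of 14 fits that each left out 1 library. ENSXMAT00000006503, with a range of 4.42 (adjusted p = 0.0244), and ENSXMAT00000009203, with 4.82 (adjusted p = 0.0274), were highest at 450–500 nm, where 1 of the 2 fish carried most of the level, and stayed called in 8 and 4 of these fits. The trend of ENSXMAT00000018069 was 3.32 from the first to the last waveband (adjusted p = 0.0163) and stayed called in 13 of 14 fits. That of ENSXMAT00000016248 was -1.11 (adjusted p = 0.0466) and stayed called in 3. By edgeR's adjusted p the 3 and 2 calls among 100 members are close to the background of 2.37% and 1.36%. By DESeq2 they were 17 (5.30% of all transcripts) and 5 (2.03%), and by unadjusted p 32 (19.3%) and 21 (21.2%).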

How the results depend on the processing

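All 100 members kept a difference above 0 in both experiments under TMM library sizes, other pseudocounts, the median of the exposed fish and pooled controls, while the list itself moved. Without fish 1 of the 50 nm controls or fish 2 of the 10 nm controls 99 did. It shared 94 members with the list by TMM library sizes, 92 and 69 with those at pseudocounts of 0.25 and 5, 99 and 86 with those at 1 and 5 CPM, 78 with that by medians and 49 with that by pooled controls, and 68 to 97 when a library was left out. The member count among the 50 nm wavebands was 3, with 17 by DESeq2, 1 with the fish number as a block and 0 to 13 without a library. The trend was called for 2 members, for 1 without the filter, 5 by DESeq2 and 0 to 4 without a library. Among the 10 nm wavebands the count was 0, 9 by DESeq2 and 0 to 0 without a library. The comparisons with the controls were used for the choice, so nothing is read from their counts. Where the number or share of all transcripts called is given, here or above, the count is set beside it. It is not given for FL with crossed fish numbers. Nor is it given among the 50 nm wavebands with the fish number as a block, or for the trend without the filter. Those member counts have no background here, and nothing is read from them either. Members higher in a 50 nm waveband were 59 (3.79% of all transcripts), and 4 to 74 without a library, the fewest being 18 among 304 transcripts and 4 among 68 without fish 1 or fish 2 of the controls. In the 10 nm experiment they were 1 (0.00611%), 65 among 828 transcripts by DESeq2, 43 among 399 with the block, 47 among 588 without fish 1 of 510–520 and 520–530 nm, and 0 to 84 without a library, the 84 among 1765 without fish 2 of 510–520 nm. After FL they were 0, 12 by DESeq2, 6 with crossed fish numbers as a block and 0 to 23 without a library. Where a library was left out, its lone partner was taken to vary like the other groups. The cause of these changes was not tested, apart from those that follow from fewer fish. Same-numbered fish did not deviate together in every pair of groups, with correlations of -0.304 to 0.346 in the 50 nm experiment, -0.0571 to 0.687 in the 10 nm experiment and -0.278 for FL. Those of the 6 pairs among the wavebands from 510–520 to 540–550 nm were all positive, at 0.270 to 0.687, and the labels do not say what a number shares, so the fish numbers were not taken as pairs. The block changed no other of these counts by more than 1.5 times. Of 397 alternative values of single members named with a call, 107 lost the call and 0 turned direction. Depth limits the members of lowest level.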
